A study of Mus musculus with 2 samples.

Results

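The 34 cell division genes described here are a list of 10 genes that act in S phase, when DNA is copied, and 24 genes that act in G2 and mitosis (G2/M), followed over the oligodendrocyte lineage of the mouse optic nerve. The members were taken by name, and all 34 were found among the 31053 genes of the tables. The S genes were Mcm2, Mcm3, Mcm4, Mcm5, Mcm6, Mcm7, Pcna, Tyms, Rrm1 and Rrm2. The G2/M genes were Mki67, Top2a, Cdk1, Ccnb1, Ccnb2, Ccna2, Birc5, Aurka, Aurkb, Bub1, Bub1b, Plk1, Cenpa, Cenpe, Cenpf, Tpx2, Ube2c, Kif11, Kif20a, Kif23, Nusap1, Prc1, Cdc20 and Hmgb2. The data came from scRNA-seq of wild-type 129S1/SvlmJ mice, with males and females pooled, and there was 1 library for each condition. One library was made from 5 injured optic nerves, 2 weeks after optic nerve crush (ONC), and the other from 5 uninjured optic nerves. By the methods the mice were 10 weeks old and ONC was done at 8 weeks, whereas the labels name an age of 56 days. The labels also enter a treatment of 2 weeks after crush for both libraries, so the condition was read from the sample titles. The authors gave each barcode (the tag of a droplet) a type, which was oligodendrocyte progenitor cell (OPC), newly formed oligodendrocyte (NFO) or oligodendrocyte.

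A cell that divides first makes the proteins that copy DNA and later those that pull the copies apart. The Mcm proteins form the helicase that opens the double helix, Pcna is the clamp that holds the polymerase on DNA, and Tyms, Rrm1 and Rrm2 make the building blocks. In G2 and mitosis, Cdk1 with its cyclins drives entry into division, kinesins and centromere proteins build and hold the spindle, and Ube2c and Cdc20 help to mark proteins for destruction so that mitosis can end. OPCs are the dividing cells of this lineage in the adult, and they leave the cell cycle when they become NFOs and then myelinating oligodendrocytes.

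The OPCs were 58 uninjured and 17 injured barcodes, the NFOs 44 and 100, and the oligodendrocytes 857 and 293, so that 1369 barcodes were described in all. The median depth was 2290 UMIs (counted RNA molecules) in uninjured and 4120 in injured OPCs, 1259.5 and 1258.5 in NFOs, and 3060 and 1268 in oligodendrocytes. No barcode sequence was shared by the libraries. The labelled types were checked against their markers. Among OPC barcodes, 91.4% (uninjured) and 76.5% (injured) had a UMI of Pdgfra, the receptor that marks OPCs, against 22.7% and 9% of NFO barcodes and 1.05% and 0.683% of oligodendrocyte barcodes. Fyn, the kinase that marked NFOs for the authors, had a UMI in 47.7% and 72.0% of NFO barcodes, but also in 31.03% and 58.8% of OPC barcodes. In oligodendrocyte barcodes the share with Fyn was 15.6% and 25.3%. Mag, a myelin protein, had a UMI in 95.3% and 66.6% of oligodendrocyte barcodes and in 38.6% and 50% of NFO barcodes. It also had one in 12.1% and 35.3% of OPC barcodes. The NFOs thus carried markers of their neighbours on either side, and the other types also held UMIs of markers not their own. With 1 library per condition no difference between the libraries has a replicate check and no test between conditions was possible. The 95% intervals below (exact binomial for shares, exact Poisson for levels, exact conditional for ratios) cover counting error only and treat UMIs as independent, although many lay in the same barcode. They are therefore too narrow for differences between cells.

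The promoters of these genes share known control motifs, and those of the 2 S and the 2 G2/M genes with most UMIs in OPCs are shown because the 2 groups parted in the barcodes described below. The sequences are RefSeq's for GRCm38.p6 and run from 250 bases before the RefSeq start of the gene to 50 bases from it, 5′ to 3′ on the strand of the gene. The motifs searched on both strands were CCAAT, the box that NF-Y binds, and TTTGAA, the core of the CHR element of G2/M genes, as well as the E2F spellings TTTCCCGC, TTTCGCGC, TTTGCCGC and TTTGGCGC. Capitals mark every match. Mcm6 lies on the minus strand (chr1:128359656-128359955), Rrm2 on the plus strand (chr12:24708004-24708303), Hmgb2 on the plus strand (chr8:57511593-57511892) and Top2a on the minus strand (chr11:99024140-99024439).
Mcm6: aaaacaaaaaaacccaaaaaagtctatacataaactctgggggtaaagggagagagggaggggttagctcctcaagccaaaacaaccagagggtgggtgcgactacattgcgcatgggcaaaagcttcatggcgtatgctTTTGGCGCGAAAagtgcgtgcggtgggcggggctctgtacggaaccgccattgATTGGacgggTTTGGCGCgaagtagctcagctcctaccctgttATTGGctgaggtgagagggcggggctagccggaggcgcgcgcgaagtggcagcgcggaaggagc
Rrm2: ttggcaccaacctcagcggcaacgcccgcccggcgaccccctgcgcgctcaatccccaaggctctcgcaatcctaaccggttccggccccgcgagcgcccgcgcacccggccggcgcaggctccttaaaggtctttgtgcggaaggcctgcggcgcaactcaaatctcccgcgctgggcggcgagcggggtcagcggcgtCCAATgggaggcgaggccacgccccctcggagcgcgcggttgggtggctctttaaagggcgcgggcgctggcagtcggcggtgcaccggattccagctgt
Hmgb2: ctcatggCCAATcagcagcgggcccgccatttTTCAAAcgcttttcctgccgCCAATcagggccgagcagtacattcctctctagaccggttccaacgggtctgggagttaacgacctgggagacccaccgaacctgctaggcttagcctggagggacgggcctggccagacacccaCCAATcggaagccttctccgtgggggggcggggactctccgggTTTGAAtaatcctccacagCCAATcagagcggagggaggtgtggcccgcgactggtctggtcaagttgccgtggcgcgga
Top2a: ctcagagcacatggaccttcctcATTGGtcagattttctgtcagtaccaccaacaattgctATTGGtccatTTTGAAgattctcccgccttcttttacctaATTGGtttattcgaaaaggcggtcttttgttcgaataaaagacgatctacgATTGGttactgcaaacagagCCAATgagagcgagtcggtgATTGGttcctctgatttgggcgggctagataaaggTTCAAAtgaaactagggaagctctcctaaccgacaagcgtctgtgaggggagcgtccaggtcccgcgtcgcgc

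The S promoter of Mcm6 held 3 matches to an E2F spelling, of which those at -110 to -103 and -106 to -99 overlap on opposite strands, and 2 CCAAT boxes. The promoter of Rrm2 held 1 CCAAT box at -50 to -46 and none of the other motifs. The G2/M promoter of Top2a held 6 CCAAT boxes and 2 TTTGAA motifs, and that of Hmgb2 held 4 and 2, with the nearest TTTGAA motif 23 to 18 bases before the start in Top2a and 30 to 25 bases before it in Hmgb2. RefSeq windows were matched for 29 of the 34 genes (9 S and 20 G2/M genes). A CCAAT box stood in 8 of 9 S promoters and 18 of 20 G2/M promoters, against 37.4% of all 32851 promoter windows. TTTGAA stood in 15 of 20 G2/M promoters and in 1 of 9 S promoters (Mcm2), against 17.9% of all windows. An E2F spelling stood in 4 of 9 S promoters (Mcm3, Mcm5, Mcm6 and Mcm7) and in 1 of 20 G2/M promoters (Cdk1), against 2.26% of all windows. These matches describe the letters of the window and are not evidence of binding.

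Summed over all barcodes of a class, the level of the 34 genes was highest in OPCs and lowest in oligodendrocytes in both libraries, but in uninjured OPCs this order rested on 1 barcode. In the uninjured library, OPCs had 292 UMIs of these genes, or 1704 CPM (counts per 1000000 UMIs of the class, interval 1514 to 1911), NFOs had 67 UMIs (712 CPM, 552 to 904), and oligodendrocytes had 632 UMIs (152 CPM, 141 to 165). In the injured library the values were 242 UMIs (2058 CPM, 1807 to 2334) in OPCs, 130 UMIs (369 CPM, 309 to 439) in NFOs and 344 UMIs (149 CPM, 134 to 166) in oligodendrocytes. The OPC level was thus 11.2 times that of oligodendrocytes in the uninjured library (9.71 to 12.9) and 13.8 times in the injured library (11.6 to 16.3). Without the 1 uninjured OPC barcode with most of these UMIs, the uninjured OPCs had 145 CPM, below the 366 CPM of NFOs without their own leading barcode and 0.952 times the level of oligodendrocytes (0.599 to 1.44). Without the 2 leading barcodes of the injured OPCs, 380 CPM were left there, 2.54 times the oligodendrocyte level (1.73 to 3.62). The NFO level was 4.67 times (3.58 to 6.02) and 2.47 times (2.01 to 3.03) that of oligodendrocytes, and without the 1 uninjured and the 2 injured leading NFO barcodes it was 2.41 times (1.65 to 3.40) and 1.48 times (1.139 to 1.90). Of the 34 UMIs behind the 366 CPM and the 2.41 times, 15 lay in 1 further barcode, described below as uninjured NFO B. The G2/M genes set the types apart most, at 51.2 times the oligodendrocyte level in uninjured OPCs (41.2 to 64.0) and 22.8 times in injured OPCs (17.1 to 30.6), which became 2.34 times (1.138 to 4.33) and 4.002 times (2.10 to 7.07) without the 1 uninjured and the 2 injured leading OPC barcodes. The S genes were 1.52 times the oligodendrocyte level in uninjured OPCs (1.03 to 2.18) and 10.6 times in injured OPCs (8.52 to 13.0), and without those barcodes 0.617 times (0.316 to 1.09) and 2.03 times (1.22 to 3.20). Levels at least 2-fold higher in OPCs than in oligodendrocytes, in genes with a UMI in OPCs, were found for 20 of the 24 members with at least 10 summed UMIs in the uninjured library, against 28.0% of all genes past that minimum, and for 17 of 18 in the injured library, against 27.0%. Without the same barcodes these counts became 3 of 12, against 27.5%, and 3 of 8, against 26.7%. For NFOs the counts were 9 of 14 members in the uninjured library, against 24.3% of all genes, and 5 of 12 in the injured library, against 18.4%, and without those barcodes they became 7 of 14, against 24% of all genes, and 1 of 9, against 18.2%.

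In OPCs most of these UMIs lay in 3 barcodes. In the uninjured library 1 OPC barcode held 269 of the 292 UMIs of its class, or 92.1%. In the injured library 2 OPC barcodes held 208 of 242 UMIs, or 86.0%. Among NFOs, 1 uninjured barcode held 33 of 67 UMIs (49.3%) and 2 injured barcodes held 53 of 130 (40.8%). These 6 barcodes held 563 of the 1707 member UMIs of all types. They had UMIs of 11 to 31 of the 34 genes, while the oligodendrocyte barcode with the most had 5 in the uninjured and 7 in the injured library. A limit of 8 genes, more than any oligodendrocyte barcode held, was set after seeing these values. It was met by 1 of 58 uninjured OPC barcodes (1.72%, interval 0.0436 to 9.24), 2 of 17 injured OPC barcodes (11.8%, 1.46 to 36.4), 1 of 44 uninjured NFO barcodes (2.27%, 0.0575 to 12.0) and 2 of 100 injured NFO barcodes (2.00%, 0.243 to 7.04). It was met by 0 of 857 uninjured oligodendrocyte barcodes (upper bound 0.430%) and by 0 of 293 injured ones (upper bound 1.25%).

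**Figure D1:**
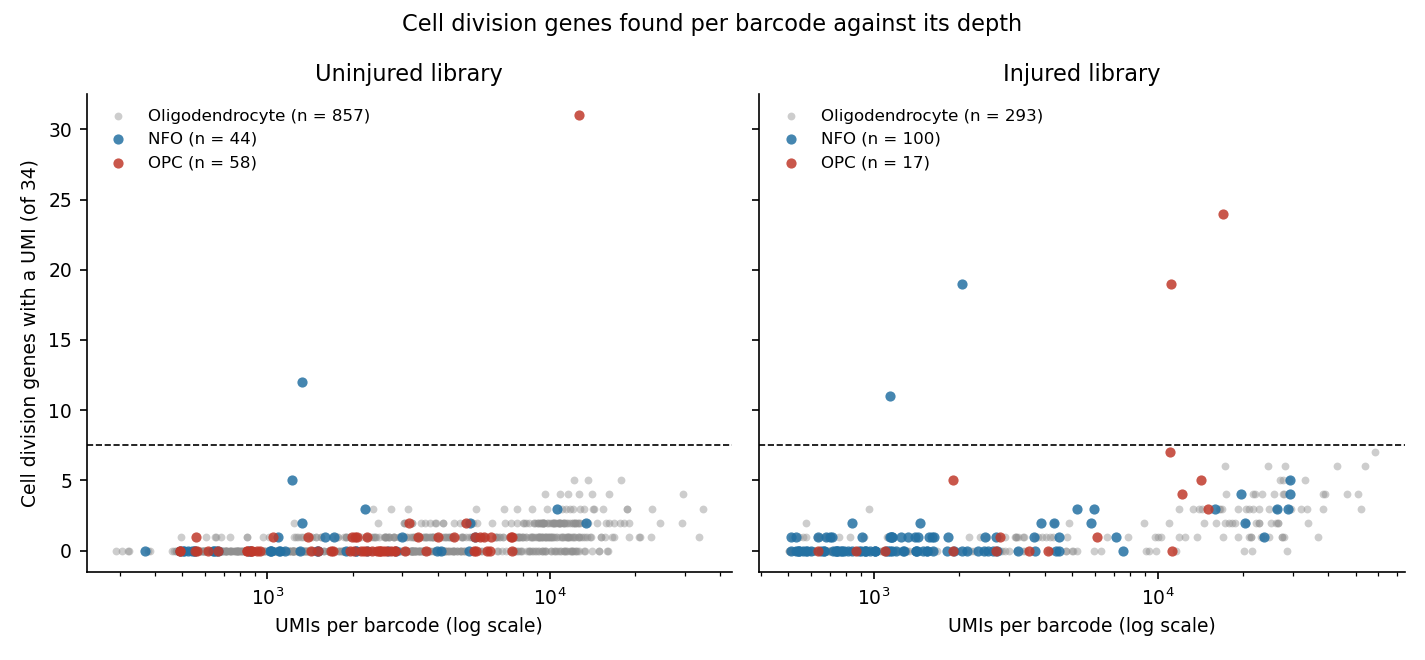
Number of the 34 cell division genes with a UMI in each barcode (vertical axis) against its UMIs (horizontal axis, log scale) for OPCs, NFOs and oligodendrocytes of each library, with 1 point per barcode and a dashed line under 8 genes. The 6 barcodes above the line are OPCs and NFOs, and below it the number of genes goes up with depth in oligodendrocytes.

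With the limit fixed for this comparison, UMIs of at least 3 of the 34 genes, the shares were larger in every class but uninjured OPCs. They were 1 of 58 (1.72%, 0.0436 to 9.24) in uninjured and 7 of 17 (41.2%, 18.4 to 67.1) in injured OPCs, 4 of 44 (9.09%, 2.53 to 21.7) and 10 of 100 (10.0%, 4.90 to 17.6) in NFOs, and 31 of 857 (3.62%, 2.47 to 5.10) and 43 of 293 (14.7%, 10.8 to 19.3) in oligodendrocytes. After each barcode was thinned to 500 UMIs, with the shallower ones left out (2 uninjured OPC, 2 uninjured NFO and 19 uninjured oligodendrocyte barcodes), the shares were 1 of 56 and 2 of 17 in OPCs, 2 of 42 and 2 of 100 in NFOs, and 0 of 838 and 0 of 293 in oligodendrocytes. At equal depth, then, barcodes with several of these genes were left in OPCs and NFOs but not in oligodendrocytes, where the upper bounds were 0.439% and 1.25%. The 41.2% of injured OPCs came down to 11.8% (1.46 to 36.4), beside 1.79% (0.0452 to 9.55) in uninjured OPCs. Depth moved with the difference between the OPCs of the libraries: 7 of 17 injured OPC barcodes had 10000 to 20000 UMIs and 1 of 58 uninjured ones did. Within that window the 1 uninjured OPC barcode had 31 of the genes, and the injured OPC barcodes had a median of 5 with at most 24. Injured oligodendrocyte barcodes (n = 25) had a median of 2 with at most 6, and uninjured ones (n = 126) a median of 1 with at most 5.

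The 6 barcodes are named here by library, type and a letter. Uninjured OPC A had 12673 UMIs, of which 269 were from 31 of the members, 20 UMIs from S genes and 249 from all 24 G2/M genes. Its leading members were Hmgb2 with 51 UMIs, Top2a with 32, Ube2c with 19 and Birc5 with 17, and Mcm3, Mcm4 and Mcm6 had none. The G2/M genes thus outweighed the S genes in it. Injured OPC A had 16983 UMIs and held 142 UMIs of 24 members, with 75 from all 10 S genes and 67 from 14 G2/M genes. Injured OPC B had 11133 UMIs and held 66 UMIs of 19 members, with 42 from all 10 S genes and 24 from 9 G2/M genes. In these 2 the helicase gene Mcm6 had 16 and 9 UMIs, Rrm1 had 8 in each, and Rrm2 had 17 and 3, whereas Ube2c, Ccnb1, Aurka, Plk1, Cenpa, Cenpe and Cdc20 had none in either. The S genes made up 7.43% of the member UMIs in uninjured OPC A, 52.8% in injured OPC A and 63.6% in injured OPC B. All 3 carried OPC markers, with 31, 13 and 10 UMIs of Pdgfra and 95, 219 and 151 UMIs of the 10 OPC markers in all.

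The NFO barcodes of this kind were shallow. Uninjured NFO A had 1320 UMIs, and 33 of them came from 12 members, 1 UMI from the S gene Rrm2 and 32 from 11 G2/M genes, led by Cdk1, Ube2c and Hmgb2 with 7 each. Injured NFO A had 2040 UMIs, with 39 from 19 members, 4 from S and 35 from G2/M genes. Injured NFO B had 1139 UMIs, with 14 from 11 members, 7 from S and 7 from G2/M genes. Per 10000 UMIs of the barcode the members held 250 in uninjured NFO A, 191 in injured NFO A and 123 in injured NFO B, beside 212, 83.6 and 59.3 in uninjured OPC A, injured OPC A and injured OPC B. A further barcode, uninjured NFO B, had UMIs of 5 members, fewer than the limit, but they held 15 of its 1219 UMIs (123 per 10000), all of them from G2/M genes, with Cenpa at 6, Birc5 at 4 and Hmgb2 at 3.

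The NFO label of these shallow barcodes rests on few UMIs. The 10 NFO markers had 2 UMIs in uninjured NFO A, 3 in uninjured NFO B, 4 in injured NFO A and 0 in injured NFO B. Per 10000 UMIs these come to 15.2, 24.6, 19.6 and 0, while the NFO barcodes with fewer than 8 members had medians of 42.5 (uninjured) and 71.3 (injured). The 10 OPC markers had 7, 3, 15 and 14 UMIs in the same order, among them 2 of Pdgfra in injured NFO B and 10 and 6 of Olig1 in injured NFO A and B. With the type taken from the highest mean normalized expression of the 3 marker lists, the injured NFO A and B barcodes were OPCs and uninjured NFO A and B were oligodendrocytes, and the OPC barcodes kept their type. Uninjured NFO A had 27 UMIs of Mbp, the myelin basic protein, and 14 of the 10 oligodendrocyte markers. Uninjured NFO B had 4 of the latter. Per 10000 UMIs these markers came to 106 and 32.8 in uninjured NFO A and B. Their medians in uninjured barcodes with fewer than 8 members were 79.6 in NFOs and 652 in oligodendrocytes. The oligodendrocyte type of these 2 barcodes thus also rests on few UMIs. The nuclear RNA Malat1 made up 0.152%, 0.328%, 0.0980% and 0.0878% of their UMIs, beside medians of 0.154% and 0.112% over the uninjured and injured NFOs and of 8.34% and 4.33% over the OPCs. Ptprc, Aif1 and C1qc, the immune markers the authors used, had 0 UMIs in all of the 6 barcodes. Of the whole list of 12 immune markers, injured OPC A had 1 UMI, and injured OPC B, NFO A and NFO B had 2 each (0.589, 1.80, 9.80 and 17.6 per 10000), while the uninjured ones had none, and the medians over the other injured OPCs and NFOs were 1.41 and 11.04 per 10000. None of the 6 was marked as a doublet by Scrublet. The part that the typing of these barcodes had in the NFO values was not tested beyond the alternatives named here.

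**Figure D2:**
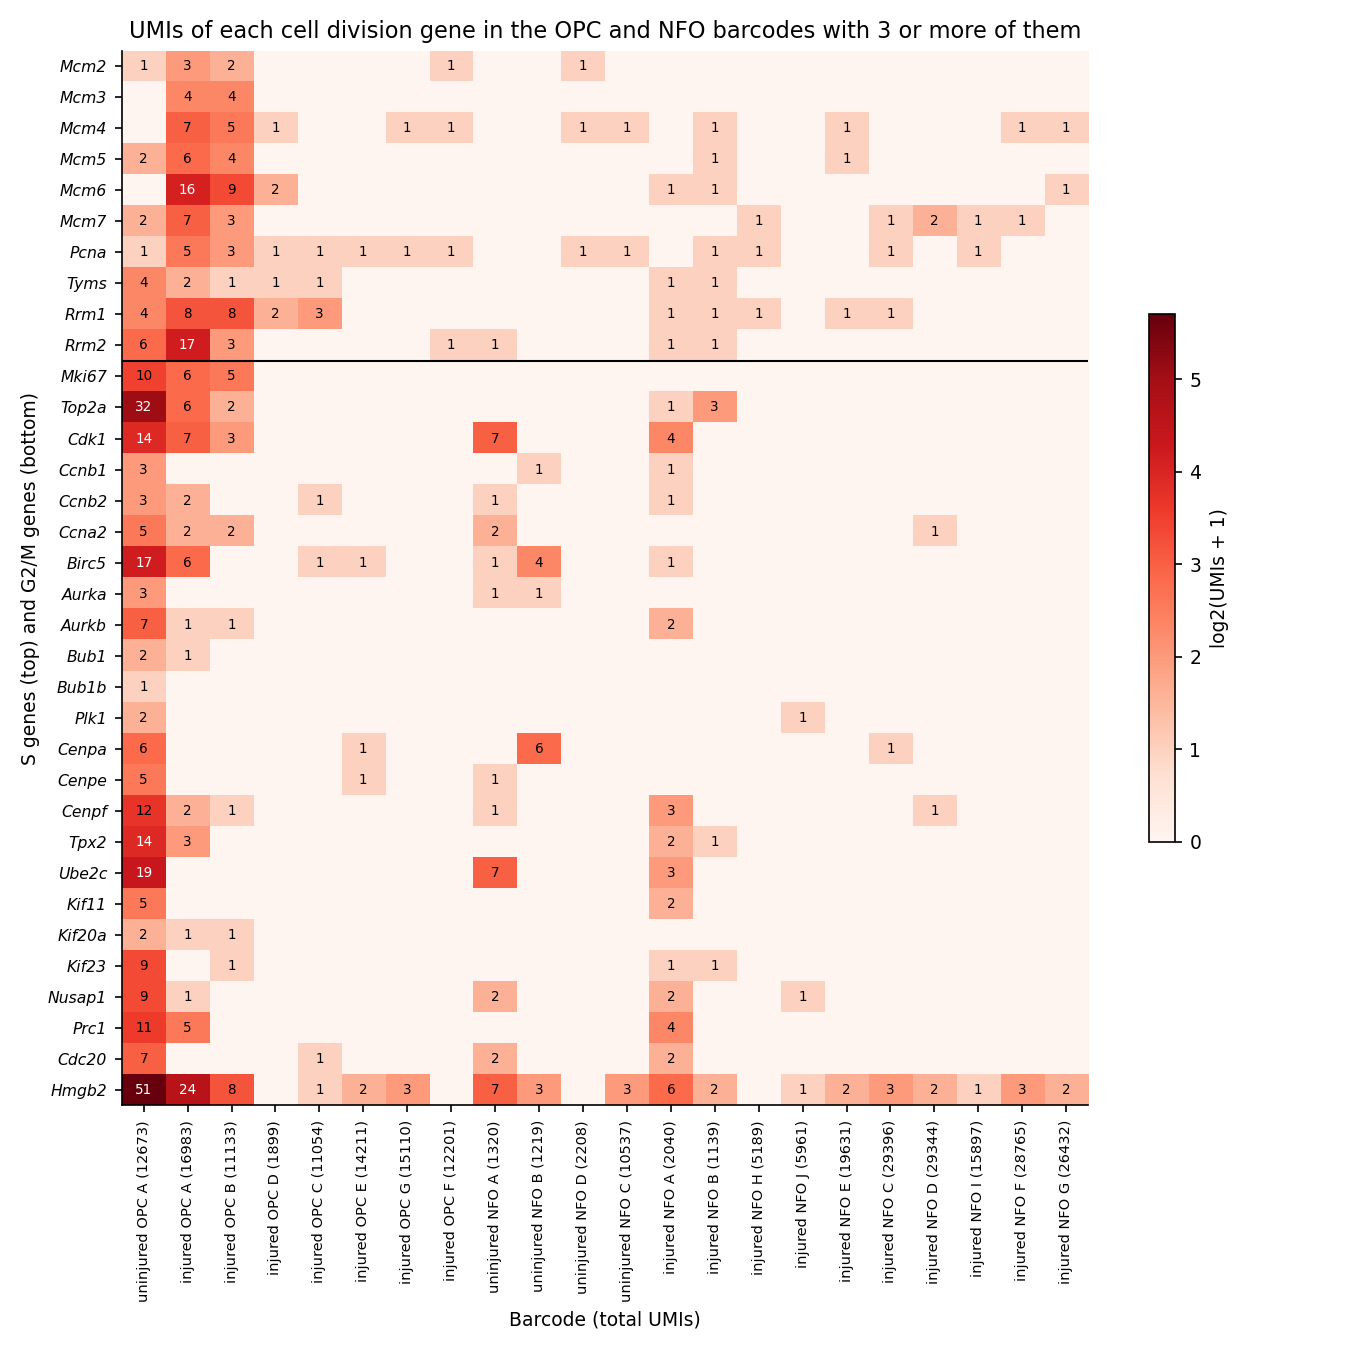
UMIs of each cell division gene (rows, S genes above the line and G2/M genes below) in the 22 OPC and NFO barcodes with UMIs of at least 3 of them (columns, total UMIs in brackets), with numbers and colour giving the UMIs. Uninjured OPC A fills all of the G2/M rows, injured OPC A and B fill all 10 S rows, and most of the other columns hold single UMIs.

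The remaining barcodes with 3 to 7 of the genes were of 2 kinds. Injured OPC D was shallow, with 1899 UMIs, and its 7 member UMIs (36.9 per 10000) all came from S genes, with 2 each from Mcm6 and Rrm1 and 1 each from Mcm4, Pcna and Tyms. Uninjured NFO D, with 2208 UMIs, also held S genes alone, with 1 UMI each of Mcm2, Mcm4 and Pcna (13.6 per 10000). Its level was below the highest S level of uninjured oligodendrocyte barcodes, 16.4 per 10000. The other OPC and NFO barcodes with 3 to 7 of the genes were mostly deep, with low levels. Injured OPC C, E, F and G had 11054 to 15110 UMIs and 3.28 to 8.14 member UMIs per 10000, and injured NFO C to G and I had 15897 to 29396 UMIs and 1.51 to 2.55 per 10000. That is below the highest level in oligodendrocyte barcodes of any depth, 20.2 per 10000 in the uninjured and 41.6 in the injured library. Injured oligodendrocyte barcodes of 10000 to 20000 UMIs had a median of 1.64 and at most 4.64 per 10000. Of the barcodes in that window, injured OPC C, at 8.14, was above that maximum. Injured OPC E, F and G, at 4.22, 3.28 and 3.31, and NFO E and I, at 2.55 and 1.89, lay between that median and that maximum. In uninjured oligodendrocytes the barcode with most G2/M UMIs had 14 UMIs of Ccnb1 and no other G2/M gene.

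**Figure D3:**
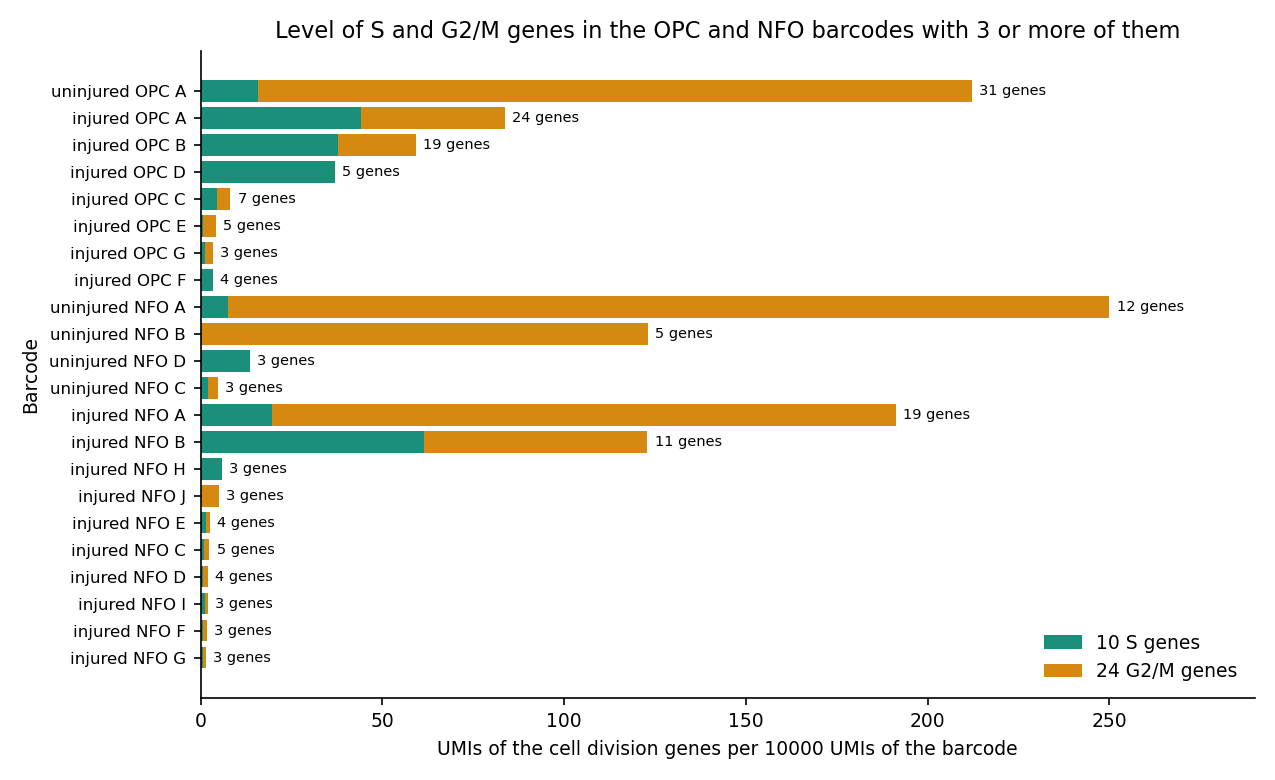
UMIs of the 10 S genes and the 24 G2/M genes per 10000 UMIs of the barcode (horizontal bars, stacked) in the 22 OPC and NFO barcodes with at least 3 of the 34 genes, with the number of genes found beside each bar. Uninjured OPC A and NFO A reach 212 and 250 per 10000, nearly all from G2/M genes, while injured OPC A, OPC B and NFO B have S genes at 44.2, 37.7 and 61.5 per 10000.

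Of the S genes, Mcm4, Mcm5, Mcm6, Pcna, Rrm1 and Rrm2 were higher in injured than in uninjured OPCs. Of the 8 S genes with at least 10 summed UMIs in OPCs, 6 were at least 2-fold higher in the injured library and none was lower, with a median log2 ratio of 2.48 beside 0.13 over all genes past the minimum. Of all 5911 such genes 14.9% were called higher and 12.6% lower. In each sentence that follows, the uninjured value stands first. Mcm6 counted 0 UMIs in uninjured OPCs and 27 in injured OPCs (0 and 229.6 CPM), against 0 and 3 UMIs in NFOs (0 and 8.53 CPM) and 2 and 0 in oligodendrocytes (0.482 and 0 CPM). Against a floor of 3 UMIs for the uninjured OPCs, the level of Mcm6 in injured OPCs was 13.1 times higher, with an exact lower bound of 9.95. Of its UMIs 16 and 9 lay in injured OPC A and B. For Mcm4 the UMIs were 0 and 16 in OPCs, 2 and 12 in NFOs, and 47 and 46 in oligodendrocytes (0 and 136, 21.2 and 34.1, and 11.3 and 19.98 CPM). Against the same floor the injured OPC level of Mcm4 was 7.77 times higher, with an exact lower bound of 5.62. Rrm1 had 5 and 21 UMIs in uninjured and injured OPCs (29.2 and 179 CPM), 2 and 9 in NFOs (21.2 and 25.6 CPM), and 85 and 44 in oligodendrocytes (20.5 and 19.1 CPM), an OPC ratio of 6.12 (2.25 to 20.8). Rrm1 and Rrm2 code for the large and the small subunit of ribonucleotide reductase, and the small subunit is made in S phase. Rrm2 counted 6 UMIs in uninjured OPCs and 21 in injured OPCs (35.02 and 179 CPM), against 1 and 3 UMIs in NFOs (10.6 and 8.53 CPM) and 0 and 0 in oligodendrocytes (0 and 0 CPM), an OPC ratio of 5.10 (1.99 to 15.4).

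Mcm5 and Pcna were also past the 2-fold limit in OPCs, and the other S genes were short of it or too rare. For Mcm5 the UMIs were 2 and 10 in OPCs, 1 and 3 in NFOs, and 10 and 7 in oligodendrocytes (11.7 and 85.04, 10.6 and 8.53, and 2.41 and 3.04 CPM), an OPC ratio of 7.28 (1.55 to 68.4). Pcna had 5 and 13 UMIs in uninjured and injured OPCs (29.2 and 111 CPM), 3 and 10 in NFOs (31.9 and 28.4 CPM), and 259 and 103 in oligodendrocytes (62.4 and 44.7 CPM), an OPC ratio of 3.79 (1.27 to 13.6). Pcna also works in DNA repair, and it was the member with most UMIs in oligodendrocytes. Mcm7 counted 8 UMIs in uninjured OPCs and 10 in injured OPCs (46.7 and 85.04 CPM), against 3 and 7 UMIs in NFOs (31.9 and 19.9 CPM) and 55 and 26 in oligodendrocytes (13.3 and 11.3 CPM), an OPC ratio of 1.82 (0.647 to 5.31), short of the 2-fold limit. For Tyms the UMIs were 5 and 5 in OPCs, 2 and 2 in NFOs, and 9 and 5 in oligodendrocytes (29.2 and 42.5, 21.2 and 5.68, and 2.169 and 2.172 CPM). Tyms, thymidylate synthase, had an OPC ratio of 1.46 (0.335 to 6.33), too wide an interval to tell a direction. Mcm2 had 1 and 6 UMIs in uninjured and injured OPCs (5.84 and 51.02 CPM), 1 and 2 in NFOs (10.6 and 5.68 CPM), and 9 and 8 in oligodendrocytes (2.169 and 3.47 CPM). Mcm3 counted 0 UMIs in uninjured OPCs and 8 in injured OPCs (0 and 68.03 CPM), against 0 and 3 UMIs in NFOs (0 and 8.53 CPM) and 33 and 15 in oligodendrocytes (7.95 and 6.52 CPM). Both were under the minimum of 10 summed UMIs in OPCs.

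Of the G2/M genes, Top2a, Ube2c, Tpx2, Cenpf, Kif23 and Nusap1 were lower in injured OPCs when summed over all barcodes. Of the 11 G2/M genes with at least 10 summed UMIs in OPCs, 6 were at least 2-fold lower in the injured library and none was higher, with a median log2 ratio of -1.46. For Top2a the UMIs were 32 and 8 in OPCs, 0 and 6 in NFOs, and 0 and 2 in oligodendrocytes (187 and 68.03, 0 and 17.1, and 0 and 0.869 CPM), an OPC ratio of 0.364 (0.145 to 0.807). Top2a untangles the copied chromosomes, and all 32 of its UMIs in uninjured OPCs came from OPC A. Ube2c had 19 and 0 UMIs in uninjured and injured OPCs (111 and 0 CPM), 7 and 3 in NFOs (74.4 and 8.53 CPM), and 0 and 3 in oligodendrocytes (0 and 1.303 CPM). With the floor of 3 UMIs in injured OPCs, the Ube2c level there was 0.230 times that of uninjured OPCs, with an exact upper bound of 0.312. All 19 uninjured UMIs came from OPC A. Tpx2 counted 14 UMIs in uninjured OPCs and 3 in injured OPCs (81.7 and 25.5 CPM), against 0 and 3 UMIs in NFOs (0 and 8.53 CPM) and 4 and 8 in oligodendrocytes (0.964 and 3.47 CPM), an OPC ratio of 0.312 (0.0575 to 1.12). For Cenpf the UMIs were 13 and 3 in OPCs, 1 and 5 in NFOs, and 17 and 10 in oligodendrocytes (75.9 and 25.5, 10.6 and 14.2, and 4.097 and 4.34 CPM), an OPC ratio of 0.336 (0.0615 to 1.22). Tpx2 helps to nucleate spindle microtubules and Cenpf binds at the kinetochore. Kif23 had 9 and 1 UMIs in uninjured and injured OPCs (52.5 and 8.504 CPM), 0 and 2 in NFOs (0 and 5.68 CPM), and 3 and 0 in oligodendrocytes (0.723 and 0 CPM). Nusap1 counted 9 UMIs in uninjured OPCs and 1 in injured OPCs (52.5 and 8.504 CPM), against 2 and 3 UMIs in NFOs (21.2 and 8.53 CPM) and 1 and 4 in oligodendrocytes (0.241 and 1.74 CPM). Kif23, a kinesin of the midzone needed for the cells to part, and Nusap1, a spindle protein, both had an OPC ratio of 0.162 (0.00369 to 1.17). The intervals of these 4 genes reached past 1.

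Other mitotic genes differed by less than 2-fold between the OPCs of the libraries, or had under 10 summed UMIs there. For Mki67 the UMIs were 10 and 11 in OPCs, 0 and 1 in NFOs, and 10 and 2 in oligodendrocytes (58.4 and 93.5, 0 and 2.84, and 2.41 and 0.869 CPM), an OPC ratio of 1.60 (0.618 to 4.21). Mki67 codes for the Ki-67 protein, the usual marker of cycling cells, and in OPCs it was found in uninjured OPC A and injured OPC A and B alone. Cdk1 had 14 and 10 UMIs in uninjured and injured OPCs (81.7 and 85.04 CPM), 7 and 4 in NFOs (74.4 and 11.4 CPM), and 0 and 0 in oligodendrocytes (0 and 0 CPM), an OPC ratio of 1.04 (0.414 to 2.52). Birc5 counted 18 UMIs in uninjured OPCs and 8 in injured OPCs (105 and 68.03 CPM), against 5 and 1 UMIs in NFOs (53.1 and 2.84 CPM) and 3 and 1 in oligodendrocytes (0.723 and 0.434 CPM), an OPC ratio of 0.648 (0.244 to 1.57). Birc5, survivin, is a subunit of the chromosomal passenger complex with the kinase Aurkb. For Aurkb the UMIs were 7 and 2 in OPCs, 0 and 2 in NFOs, and 0 and 0 in oligodendrocytes (40.9 and 17.01, 0 and 5.68, and 0 and 0 CPM). Prc1 had 12 and 5 UMIs in uninjured and injured OPCs (70.04 and 42.5 CPM), 0 and 4 in NFOs (0 and 11.4 CPM), and 4 and 6 in oligodendrocytes (0.964 and 2.61 CPM), an OPC ratio of 0.607 (0.168 to 1.85). Prc1 bundles the microtubules of the midzone. Hmgb2 counted 58 UMIs in uninjured OPCs and 40 in injured OPCs (339 and 340.1 CPM), against 15 and 32 UMIs in NFOs (159 and 90.9 CPM) and 14 and 18 in oligodendrocytes (3.37 and 7.82 CPM), an OPC ratio of 1.005 (0.654 to 1.53). Hmgb2, a chromatin protein that is abundant in cycling cells, had the most member UMIs in OPCs. It was found in 6 uninjured OPC barcodes (10.3%) and 6 injured ones (35.3%). In OPC A lay 51 of its 58 uninjured UMIs, and 24 of its 40 injured UMIs lay in 1 barcode.

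The rest of the G2/M genes were rare, and for each of them but Ccnb2 and Kif20a most UMIs in OPCs lay in uninjured OPC A. For Ccna2 the UMIs were 5 and 4 in OPCs, 2 and 1 in NFOs, and 1 and 1 in oligodendrocytes (29.2 and 34.01, 21.2 and 2.84, and 0.241 and 0.434 CPM). Ccnb1 had 3 and 0 UMIs in uninjured and injured OPCs (17.5 and 0 CPM), 1 and 1 in NFOs (10.6 and 2.84 CPM), and 17 and 0 in oligodendrocytes (4.097 and 0 CPM), and in oligodendrocytes 14 of its 17 UMIs came from 1 barcode. Ccna2 and Ccnb1 code for cyclins that activate Cdk1. Cdc20 counted 8 UMIs in uninjured OPCs and 1 in injured OPCs (46.7 and 8.504 CPM), against 2 and 2 UMIs in NFOs (21.2 and 5.68 CPM) and 5 and 1 in oligodendrocytes (1.21 and 0.434 CPM). For Cenpa the UMIs were 6 and 1 in OPCs, 6 and 1 in NFOs, and 7 and 8 in oligodendrocytes (35.02 and 8.504, 63.7 and 2.84, and 1.69 and 3.47 CPM). Cenpa, the histone variant of the centromere, had 6 UMIs in uninjured OPC A and 6 in uninjured NFO B. Cenpe had 5 and 1 UMIs in uninjured and injured OPCs (29.2 and 8.504 CPM), 1 and 0 in NFOs (10.6 and 0 CPM), and 20 and 15 in oligodendrocytes (4.82 and 6.52 CPM). Kif11 counted 5 UMIs in uninjured OPCs and 0 in injured OPCs (29.2 and 0 CPM), against 0 and 2 UMIs in NFOs (0 and 5.68 CPM) and 1 and 0 in oligodendrocytes (0.241 and 0 CPM). Kif11 and Cenpe are spindle motors, and Kif11 was found in OPCs in uninjured OPC A alone. For Aurka the UMIs were 3 and 0 in OPCs, 2 and 0 in NFOs, and 6 and 7 in oligodendrocytes (17.5 and 0, 21.2 and 0, and 1.45 and 3.04 CPM). Plk1 had 2 and 0 UMIs in uninjured and injured OPCs (11.7 and 0 CPM), 0 and 1 in NFOs (0 and 2.84 CPM), and 9 and 2 in oligodendrocytes (2.169 and 0.869 CPM). Aurka and Plk1 are kinases of the spindle poles and of mitotic entry. The 4 remaining members, the cyclin Ccnb2, the checkpoint kinases Bub1 and Bub1b and the kinesin Kif20a, had fewer than 5 UMIs in every type of each library.

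**Figure D4:**
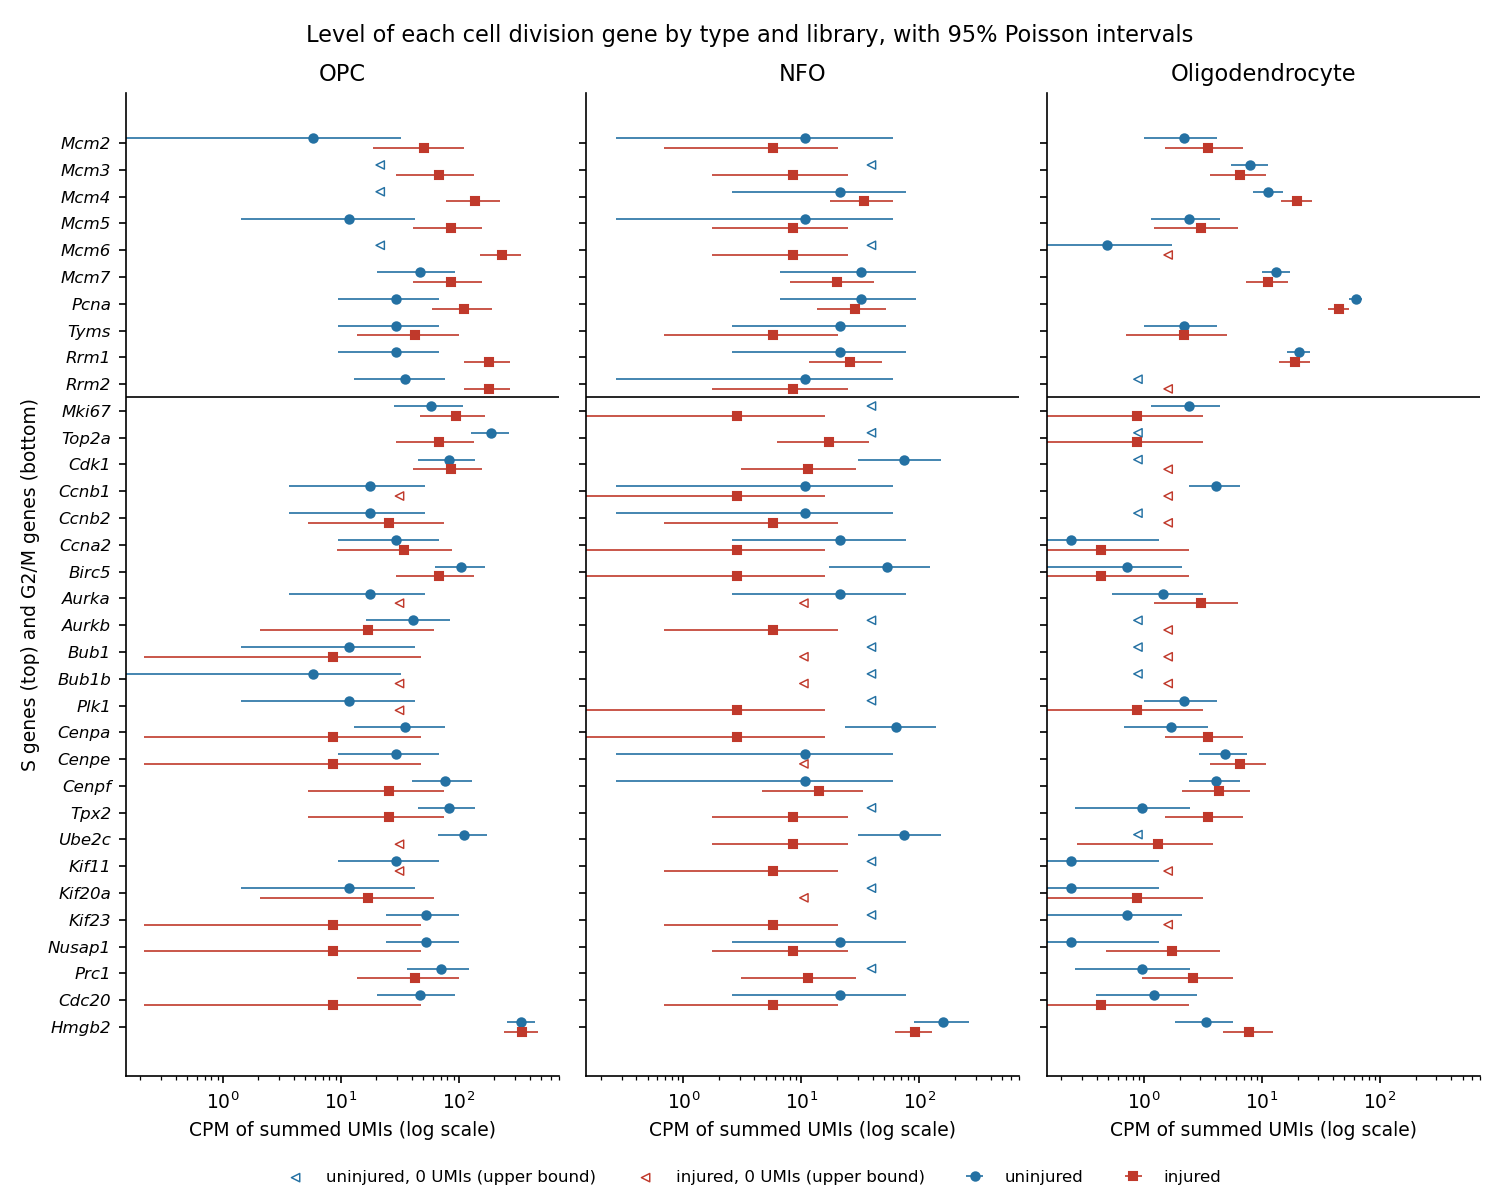
CPM of the summed UMIs of each cell division gene (horizontal axis, log scale) in OPCs, NFOs and oligodendrocytes of the uninjured library (circles) and the injured library (squares), with exact 95% Poisson intervals, some of which run past the left edge, and open triangles at the upper bound where a class had 0 UMIs. In OPCs the injured points of Mcm4, Mcm6, Rrm1 and Rrm2 lie to the right of the uninjured ones and those of Top2a and Ube2c to the left, and the oligodendrocyte points of most G2/M genes lie far to the left.

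The lower G2/M sum of injured OPCs rested on 1 barcode, and the higher S sum did not. Over all OPC barcodes the S genes had 187 CPM in the uninjured and 1165 CPM in the injured library, a ratio of 6.24 (4.22 to 9.48), and the G2/M genes had 1518 and 893 CPM, a ratio of 0.588 (0.465 to 0.741). Together the 34 genes had a ratio of 1.21 (1.01 to 1.44). Without the barcode with most of these UMIs in each class the ratio was 6.86 (4.32 to 11.3) for all 34 genes, 8.15 (4.35 to 16.6) for the S genes and 5.45 (2.73 to 11.8) for the G2/M genes, which reversed. Without the barcodes of at least 8 genes, 23 member UMIs were left in 57 uninjured OPC barcodes and 34 in 15 injured ones, with a ratio of 2.62 (1.4996 to 4.66) for all genes, 2.96 (1.38 to 6.63) for S genes and 2.26 (0.952 to 5.49) for G2/M genes. Without those barcodes 1 member was called higher in injured OPCs and 0 lower, in place of 6 and 6. The called members in OPCs thus rested mainly on 3 barcodes. The median depth of the barcodes left was 2244 UMIs in the uninjured and 3535 in the injured library, and CPM of summed UMIs gives the deep barcodes more weight. The 12 immune markers had 35.0 CPM in uninjured OPCs (5 of 12 found) and 238 CPM in injured OPCs (10 of 12 found), with no OPC barcode holding UMIs of 2 of Ptprc, Aif1 and C1qc.

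In NFOs, summed over all barcodes, the level of the G2/M genes was lower in the injured library and that of the S genes was close. The sum of all members went from 712 to 369 CPM, a ratio of 0.519 (0.384 to 0.708), with the G2/M genes at 552 and 216 CPM, a ratio of 0.391 (0.271 to 0.568), and the S genes at 159 and 153 CPM, a ratio of 0.963 (0.536 to 1.84). Without the barcode with most member UMIs in each class, the ratio for all genes was 0.710 (0.474 to 1.09), and without the barcodes of at least 8 genes it was 0.603 (0.398 to 0.931). Both removals keep the shallow uninjured NFO B. It held 15 of the 34 member UMIs left in uninjured NFOs, and 15 of the 20 G2/M UMIs left there without the barcodes of at least 8 genes. The lower level in injured NFOs thus rested largely on uninjured NFO A and B, and a ratio without both was not computed. With types taken from the marker lists the G2/M ratio in NFOs turned to 1.45, but only 5 uninjured and 23 injured barcodes were NFOs by these lists. Only 7 members had at least 10 summed UMIs in NFOs. Of these 0 were called higher, against 15.9% of all genes, and 2 were called lower, against 11.3%. The 2 were Cdk1, with a ratio of 0.153 (0.0328 to 0.601), and Ube2c, with a ratio of 0.115 (0.0191 to 0.502), and in uninjured NFOs all 7 UMIs of each came from NFO A. The immune markers, 12 genes, had 21.2 CPM in uninjured and 657 CPM in injured NFOs, with 2 of 12 and 12 of 12 genes found, and their part in the NFO result was not tested beyond leaving out the 2 injured NFO barcodes with UMIs of at least 2 of Ptprc, Aif1 and C1qc.

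In oligodendrocytes the members had close summed levels in both libraries, 152 and 149 CPM, with a ratio of 0.981 (0.858 to 1.12). Of these UMIs 509 of 632 in the uninjured and 254 of 344 in the injured library came from S genes, mainly Pcna, Rrm1, Mcm4, Mcm7 and Mcm3. The G2/M genes had 29.6 and 39.1 CPM, a ratio of 1.32 (0.993 to 1.74). Of 18 members with at least 10 summed UMIs, 5 were called higher, against 9.59% of all genes, and 3 lower, against 7.23%. The 5 were Tpx2 with a ratio of 3.60 (0.966 to 16.4), Prc1 with 2.70 (0.641 to 13.0), Hmgb2 with 2.32 (1.09 to 5.03), Aurka with 2.10 (0.605 to 7.57) and Cenpa with 2.06 (0.653 to 6.67). The 3 were Mki67 with 0.360 (0.0384 to 1.69), Plk1 with 0.400 (0.0421 to 1.93) and Ccnb1, with 0.318 against the floor of 3 UMIs and an exact upper bound of 0.437. Each of these genes but Hmgb2 and Ccnb1 had an interval that held 1, and 14 of the 17 uninjured UMIs of Ccnb1 lay in 1 barcode. Mcm4 was higher by less than the limit, with a ratio of 1.76 (1.15 to 2.71), and Pcna was lower by less than the limit, with 0.717 (0.565 to 0.904). Members that oligodendrocytes lacked in both libraries were Rrm2, Cdk1, Ccnb2, Aurkb, Bub1 and Bub1b. For a count of 0 the exact upper bound was 0.889 CPM in uninjured and 1.60 CPM in injured oligodendrocytes, beside 35.0 and 179 CPM of Rrm2 in OPCs.

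**Figure D5:**
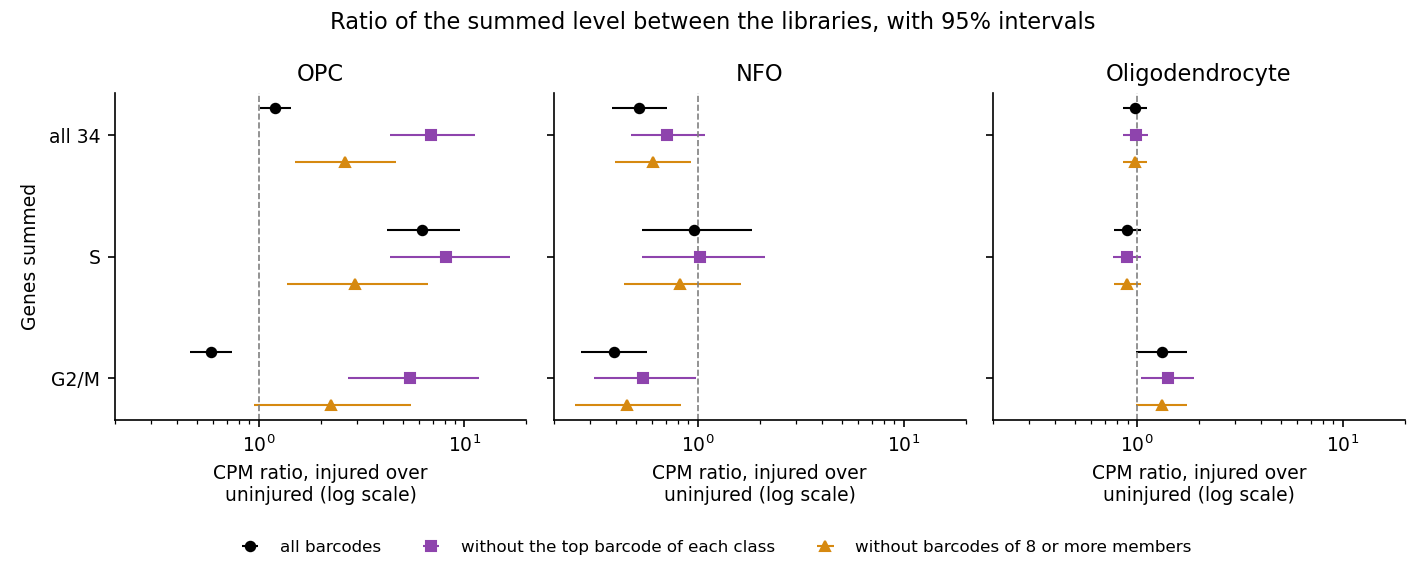
Ratio of the summed CPM, injured over uninjured (horizontal axis, log scale), of all 34 genes, the 10 S genes and the 24 G2/M genes in each type, with 95% intervals, over all barcodes (circles), without the barcode with most of these UMIs in each class (squares) and without the barcodes of at least 8 members (triangles). The G2/M ratio in OPCs moves from 0.588 to 5.45 and 2.26, while the ratios in oligodendrocytes stay between 0.891 and 1.41.

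Genes next to the members in the cell cycle were counted in lists of their own. Of 34 other replication genes, 18 had at least 10 summed UMIs in OPCs, and 16 of them were at least 2-fold higher and none lower in injured OPCs, where 14.9% of all genes were called higher and 12.6% lower. Among them were Atad2, a chromatin ATPase, with 6 UMIs in uninjured and 20 in injured OPCs, Dut, which keeps uracil out of DNA, with 8 and 18, Lig1, the ligase that joins Okazaki fragments, with 6 and 17, and Nasp, a histone chaperone, with 8 and 22. Their sum was 525 and 2245 CPM, and 214 of the 264 UMIs in injured OPCs came from OPC A and B. Without the barcodes of at least 8 members the ratio of this list was 1.81 (1.20 to 2.74), in place of 4.27 (3.35 to 5.49). Of 47 other mitosis genes, 27 passed the minimum in OPCs, with 6 higher and 5 lower, or 22.2% and 18.5% beside the same 14.9% and 12.6% of all genes. This list is dominated by genes that cells use outside division too. Stmn1, a microtubule regulator, had 12980 and 3273 UMIs in oligodendrocytes, and Hmgb1, a general chromatin protein, had 3223 and 1941. Tuba1b, a tubulin, had 771 and 196 UMIs in oligodendrocytes and 67 and 52 in OPCs.

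The cyclins that start the cycle were counted as well. Ccnd1, cyclin D1, which answers growth signals in G1, had 271 and 193 UMIs in OPCs (1582 and 1641 CPM), 30 and 56 in NFOs (319 and 159 CPM) and 35 and 71 in oligodendrocytes (8.44 and 30.8 CPM). It had 13 UMIs in uninjured OPC A, 6 in injured OPC A and 21 in injured OPC B. Injured OPC E held 60 of the 193 UMIs of injured OPCs. In oligodendrocytes its ratio was 3.66 (2.41 to 5.65). Cdk4, its kinase partner, had 29 and 35 UMIs in OPCs and 20 and 149 in NFOs. Ccnd3, cyclin D3, had 26 and 15 UMIs in OPCs and 10 and 9 in NFOs. Ccne2, cyclin E2 of the step into S phase, had 0 and 14 UMIs in OPCs. The 13 G1 cyclins and kinases together had 1944 and 2398 CPM in OPCs, a ratio of 1.23 (1.05 to 1.45), and 83.6 and 131 CPM in oligodendrocytes, a ratio of 1.57 (1.34 to 1.84).

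Of the genes that hold the cycle back, Cdkn1a was higher in injured oligodendrocytes and OPCs. Cdkn1a codes for p21, which blocks cyclin-dependent kinases, and it had 31 UMIs in uninjured and 232 in injured oligodendrocytes (7.47 and 101 CPM), a ratio of 13.5 (9.25 to 20.3). In OPCs it had 8 and 28 UMIs (46.7 and 238 CPM), a ratio of 5.10 (2.26 to 12.9), and in NFOs 4 and 22 (42.5 and 62.5 CPM). Cdkn1b, which codes for p27, had 322 and 181 UMIs in oligodendrocytes (77.6 and 78.6 CPM) and 16 and 14 in OPCs (93.4 and 119 CPM). Cdkn2c, which codes for p18, an inhibitor of Cdk4, had 23 and 8 UMIs in OPCs, a ratio of 0.507 (0.196 to 1.17), and 8 and 4 in NFOs, a ratio of 0.134 (0.0295 to 0.499). Btg1, an antiproliferative gene, had 17 and 11 UMIs in OPCs and 4 and 30 in NFOs. Of the 14 inhibitors, 11 passed the minimum in oligodendrocytes, where 5 were called higher and none lower in the injured library, against 9.59% and 7.23% of all genes. The immune markers, which are not expected in this lineage, had 27.5 CPM in uninjured and 288 CPM in injured oligodendrocytes. In each library 12 of 12 were found. The part of these markers in the values of Cdkn1a and the other inhibitors was not tested. Leaving out the 1 uninjured and 7 injured oligodendrocyte barcodes with several immune markers was done for the cell division genes alone.

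The genes that went most with the members in OPCs were read from the 8 OPC barcodes with at least 3 members against the other 67. Of the 8 barcodes 7 were injured and 1 was uninjured, while most of the 67 were uninjured. A difference between the libraries cannot be told apart from one that goes with the members here. As a description, and with depths that differ (median 12437 and 2336 UMIs), the leading genes by CPM ratio included Hist1h2ap with 76 UMIs against 0, Hist1h2ae with 36 against 2, and Cdca8 and Cenpw with 15 against 1 each. Hist1h2ap and Hist1h2ae code for histone H2A, of which 75 and 34 UMIs came from uninjured OPC A. Cdca8 is a further subunit of the passenger complex and Cenpw a centromere protein. Pbk, a mitotic kinase, was also among them with 31 against 0, and Chaf1b and Hells, which act on chromatin during replication, with 10 against 1 each, all 10 from the injured library. Egr2, a transcription factor that was on no list, had 11 against 1, with 10 of the 11 from the injured library and 8 in 1 barcode. H2afz, a histone variant, was found in all 8 barcodes, with 193 UMIs against 34. In all OPCs it had 108 UMIs in the uninjured and 119 in the injured library.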

How the data were processed

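Single cell suspensions of optic nerve were captured with the 10x Chromium v2 kit and sequenced, and the authors aligned and counted the reads with Cell Ranger 1.3 on mm10. Barcodes with at least 200 genes, at most 20% mitochondrial UMIs and at most 150000 UMIs were kept by the authors, subsampled to equal numbers per library and typed after cell cycle genes had been regressed out. The deposited values are the natural log of 1 plus 10000 times a gene's UMIs over the barcode's UMIs, computed with Seurat 4.0.3. Whole UMIs were recovered from them within 0.001 in 100% of barcodes, with the recovery tested on simulated data, and summed per type and library. CPM, shares and ratios with exact 95% intervals were computed in Python 3.11.15 (numpy 2.4.6, scipy 1.17.1). A gene was called at a CPM ratio of at least 2 or at most its inverse, among genes with at least 10 summed UMIs in both classes together, with a floor of 3 UMIs where a class had 0. For OPCs and NFOs over oligodendrocytes, calls of genes with 0 UMIs in the higher class were left out after seeing the data. No p-values were computed, since each condition had 1 library. Barcodes were thinned with a fixed seed, and doublets were left in and marked with Scrublet (scanpy 1.11.5) as an alternative. The members and lists were chosen with earlier results of these data known. Members with at least 5 UMIs in a class were named with their values, as were the 4 genes of each other list with most UMIs in OPCs with Ccnd1, Cdkn1a and Cdkn1b. Immune cells and other types were not analysed here. A deposited table of both libraries together was not used here. The values of 1 gene outside the members are not reported here.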

Additional observations from a re-analysis of the deposited data

Results flagged for a closer look

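The OPC and NFO ratios of the summed level of the 34 genes, injured over uninjured, lay on opposite sides of 1. The ratio was 1.21 (1.01 to 1.44) in OPCs and 0.519 (0.384 to 0.708) in NFOs, and this is a difference between groups that was not tested, since each condition has 1 library. Without the barcodes of at least 8 members the ratios were 2.62 (1.4996 to 4.66) and 0.603 (0.398 to 0.931). Without the barcode with most of these UMIs in each class they were 6.86 (4.32 to 11.3) and 0.710 (0.474 to 1.09). Of the 34 member UMIs of uninjured NFOs behind the 0.603, 15 lay in uninjured NFO B. By the marker lists uninjured NFO A and B were oligodendrocytes, on 14 and 4 UMIs of the 10 oligodendrocyte markers. Injured NFO A and B were OPCs by these lists, on 15 and 14 UMIs of the 10 OPC markers.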

How the results depend on the processing

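With 1 library per condition no library could be left out, and no paired analysis was possible because the labels give no replicate numbers. The precision was set by the number of barcodes, 17 in injured OPCs and 44 in uninjured NFOs, and by depth, since 94130 UMIs of uninjured NFOs put 3 UMIs at 31.9 CPM. The limits of 8 genes and of 10000 to 20000 UMIs, the removal of barcodes of 8 genes and all alternatives for the levels over oligodendrocytes were chosen after seeing the data. Of 66 values for shares 36 stayed within the reported interval, of 96 for ratios 75 did, and 29 of 42 counts stayed within 1.5 times. The comparisons with oligodendrocytes were less stable. Of 24 values for the levels over oligodendrocytes 4 stayed within the interval, 16 moved out of it and 4 reversed, and 4 of 8 counts over oligodendrocytes stayed within 1.5 times. Causes of the shifts were not tested.

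Shares of barcodes are given in percent, uninjured first. At 2 or more genes they were 14.2 and 21.5 in oligodendrocytes, at 5 or more 0.350 and 3.41, and 3 in injured NFOs. With 2 of 23 G2/M genes they were 4 in injured NFOs and 0.700 and 3.41 in oligodendrocytes. Thinned to 500 UMIs they were 11.8 in injured OPCs, 2.00 in injured NFOs and 0 and 0 in oligodendrocytes, and thinned to 1000 UMIs 13.3, 3.13, and 0.143 and 0. Under the stricter filter (at least 500 genes, at most 10% mitochondrial UMIs) oligodendrocytes had 5.24 and 32.3, and with types from marker lists uninjured NFOs had 0 (of 5). At 8 or more genes the shares were 11.8 in injured OPCs, 2.27 and 2.00 in NFOs and 0 and 0 in oligodendrocytes. Between 10000 and 20000 UMIs they were 100% (1 of 1) and 85.7 in OPCs, 50 and 100 in NFOs, and 15.1 and 40.0 in oligodendrocytes.

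The ratio of all 34 genes was 2.37 in OPCs and 1.27 in oligodendrocytes as a mean over barcodes. It was 1.92, 0.840 and 1.28 in OPCs, NFOs and oligodendrocytes thinned to 500 UMIs, 6.86 in OPCs and 0.710 in NFOs without the leading barcode, and 2.62 in OPCs without the barcodes of 8 genes. The G2/M ratio in OPCs reversed to 1.15 as a mean over barcodes, to 5.45 without the leading barcode, to 1.32 thinned to 500 UMIs and to 2.26 without the barcodes of 8 genes. That in NFOs reversed to 1.45 with types from marker lists, which left 5 uninjured and 23 injured NFO barcodes.

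The number of members called higher in injured OPCs was 6, and it was 0 with at least 50 summed UMIs and 1 without the barcodes of 8 genes. The number called lower was 6, with 10 at 5 summed UMIs, 0 at 50 and 0 without those barcodes. In NFOs 1 was higher at a fold of 1.5, and in place of 2 lower there were 5 at 5 summed UMIs, 0 at 50, 4 at a fold of 1.5 and 0 without the barcodes of 8 genes. In oligodendrocytes the 5 higher became 0 at 50 summed UMIs and 3 with mitochondrial UMIs and Malat1 left out of the total, and the 3 lower became 0 at 50.

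Over oligodendrocytes, the level of all 34 genes without the leading barcode reversed to 0.952 in uninjured OPCs, as did that of the S genes to 0.617, and it was 6.65 in injured OPCs and 2.41 and 1.74 in NFOs. Without the barcodes of 8 genes it was 0.952 (S genes 0.617) and 2.54 in OPCs and 2.41 and 1.48 in NFOs. With the floor of 3 UMIs also put in place of 0 in OPCs or NFOs, 21 and 17 members were called higher in OPCs and 11 and 5 in NFOs, against 33.7%, 33.8%, 38.5% and 18.4% of all genes, among them Mcm3 (uninjured OPCs and NFOs) and Mki67 (uninjured NFOs) with 0 UMIs there. Calls that need a UMI were 20 and 17, and 9 and 5, and without the barcodes of 8 genes 3 and 3, and 7 and 1.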
